A study of Mus musculus with 81 samples.

Results

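Langerhans cells sorted from the skin of Irf8 knockout mice were compared with Langerhans cells of wild-type mice, to ask which genes of this epidermal population have another level when Irf8 is missing. The comparison took 3 knockout samples and 3 wild-type samples, chosen by the descriptions the submitters gave them, 6 of the 80 samples of a series on macrophages and their progenitors in mouse embryos and adults. All 6 came from adult mice, 6 weeks of age, were freed from skin with collagenase, dispase and DNase, and were sorted by FACS. Strain, sex and the allele behind the knockout are not given in the labels, nor is it said whether samples of a group came from separate animals, so p-values measure only the spread between samples, which may be technical and which the fit pools over all groups of the series. GFP+ cells are named in the titles of the wild-type samples alone, which also share a numeric suffix that the labels do not explain and the knockout titles lack. A reporter, gate or other handling that differed with genotype cannot be told apart from the knockout here, which holds for every result below.

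Langerhans cells are the resident antigen-presenting phagocytes of the epidermis. They arise largely from embryonic macrophage precursors, renew themselves in place, depend on IL-34 that keratinocytes make and on TGF-β signalling, and carry langerin (Cd207) in Birbeck granules. When activated they leave the epidermis along chemokine gradients read by CCR7 and present antigen in lymph nodes. IRF8 belongs to the interferon regulatory factors, and is a transcription factor needed for classical monocytes and for some dendritic cell lineages, and that binds composite DNA sites together with PU.1 (Spi1).

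Expression was read on arrays, and each value is a log2 signal, so that 1 log2 unit is a 2-fold difference. Levels are given sample by sample in the order of the replicate numbers, group levels as mean ± SD (n = 3), and changes as knockout minus wild type, the log2 change ± standard error of the limma fit. A gene was called where its Benjamini-Hochberg adjusted p was under 0.05. Of 17076 genes tested, 4619 were called (27.0%), 2839 of them higher in the knockout (16.6%) and 1780 lower (10.4%). The groups did not overlap in 4343 of the called genes, a count that calling itself favours, and no such share over all tested genes was taken. A change of over 1 log2 unit was called higher in 1571 genes and lower in 682, and one of over 2 log2 units, 4-fold, in 310 and 112. The counts of each direction depend on scale. Over the tested genes, array medians were 4.40 to 4.43 in the knockout and 4.13 to 4.14 in the wild type, although over the whole table they were 3.06 to 3.07 in the knockout and 3.16 to 3.19 in the wild type. When each array was centred on its median over the tested genes, the counts became 1869 higher and 4123 lower, and the median change over all genes -0.29 instead of -0.01. Counts of list members are therefore followed by their shares, to be read against the 16.6% and 10.4% of all genes, and by the counts after this centring. Of all tested genes, 2859 were below the median of the whole table on every Langerhans array. When only the 13128 genes above that median in at least 2 Langerhans arrays were tested, 4804 were called (36.6%), 2947 higher and 1857 lower. A list with few genes of such low signal can thus exceed the shares of all genes for that reason alone. Quantile normalization gave 2423 higher and 2287 lower. Correlations between arrays were 0.973 to 0.977 within the knockout, 0.976 to 0.979 within the wild type and 0.913 to 0.933 between them, and no library stood apart from its group by this measure.

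Irf8, the targeted gene, read 7.58, 8.20 and 7.39 in the knockout samples, against 8.99, 8.80 and 8.65 in the wild-type samples. No knockout sample reached the wild-type range, and the change was -1.09 ± 0.25, adjusted p = 0.000413, with a second probe of the gene also called lower. Signal was thus lower but far above the median of the table (3.041), and since neither the deleted part of the gene nor the position of the probe is given in the sources used here, this level does not check the genotype labels. Genes of the sex chromosomes differed between samples: the Y-linked Eif2s3y read 4.87, 4.93 and 7.57 in the knockout samples, against 1.62, 2.68 and 1.31 in the wild-type samples. Xist, the RNA of the inactive X, read 9.68, 9.54 and 7.70 in the knockout samples, against 9.77, 9.91 and 10.30 in the wild-type samples. Knockout sample 3 was the highest in Eif2s3y and the lowest in Xist. Eif2s3y was under the median of the table in all wild-type samples and above it in all knockout samples. A mix of sexes that differed with genotype cannot be told apart from the knockout here. Eif2s3y was called (3.92 ± 1.27, adjusted p = 0.0144) but not without knockout replicate 3 (3.03, adjusted p = 0.121) or wild-type replicate 3, and Xist was not (-1.02 ± 1.50, adjusted p = 0.698). The Y-linked Uty (1.57 ± 0.91, adjusted p = 0.22) and Kdm5d (1.74 ± 0.99, adjusted p = 0.205) were also highest in knockout sample 3 and did not pass the test, but in a fit to the 6 Langerhans arrays alone Kdm5d passed (adjusted p = 0.0189). Without the genes of both sex chromosomes, 2766 genes were higher and 1730 lower.

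The genes that define Langerhans cells were at high levels in both genotypes. Cd207, which encodes langerin, read 11.45, 11.47 and 11.37 in the knockout samples, against 11.56, 11.51 and 11.72 in the wild-type samples, while the highest mean of the other 25 groups of the series was 7.33. Epcam, an adhesion molecule of epidermal Langerhans cells, read 8.79, 8.72 and 8.39 in the knockout samples, against 8.75, 8.21 and 8.59 in the wild-type samples, with 5.07 as the highest mean elsewhere. The label of the cell type was thus borne out by both markers in all 6 samples. Neither passed the test (-0.16 ± 0.25, adjusted p = 0.711 for Cd207, 0.12 ± 0.37, adjusted p = 0.87 for Epcam), and neither did Csf1r, the receptor for IL-34 (0.14 ± 0.18, adjusted p = 0.641), Mfge8, a bridge between phosphatidylserine and integrins (-0.27 ± 0.27, adjusted p = 0.531), Cd24a, Cldn1 or Itgax. In a fit to the 6 Langerhans arrays alone Mfge8 was called lower (adjusted p = 0.0228). Of 14 tested identity genes, 4 were higher and 1 lower (28.6% and 7.14%; 4 and 1 after median centring), with a median change of 0.13.

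Sirpa, the receptor for the CD47 signal, read 8.11, 7.95 and 7.72 in the knockout samples, against 5.82, 6.13 and 6.41 in the wild-type samples. Nedd4, a ubiquitin ligase, read 9.29, 9.19 and 9.18 in the knockout samples, against 6.97, 6.94 and 7.14 in the wild-type samples. In both genes each knockout sample lay above each wild-type sample, with changes of 1.81 ± 0.15, adjusted p = 2.93e-15 for Sirpa and 2.20 ± 0.30, adjusted p = 1.75e-08 for Nedd4. Cdh1, E-cadherin, by which Langerhans cells hold on to keratinocytes, also rose (1.40 ± 0.41, adjusted p = 0.00571), though keratinocytes express it too and of its 2 probes only 1 was called, and so did Ptpn18 (0.94 ± 0.26, adjusted p = 0.00337). Keratinocyte markers were higher in the same samples, and their part in the rise of Cdh1 was not tested, since in bulk samples more cells of a type and more RNA per cell cannot be told apart. Ly75, the endocytic receptor DEC-205, was the identity gene that fell. It read 7.34, 7.77 and 7.06 in the knockout samples, against 9.19, 9.33 and 9.50 in the wild-type samples, without overlap (-1.95 ± 0.40, adjusted p = 7.61e-05).

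**Figure D1:**
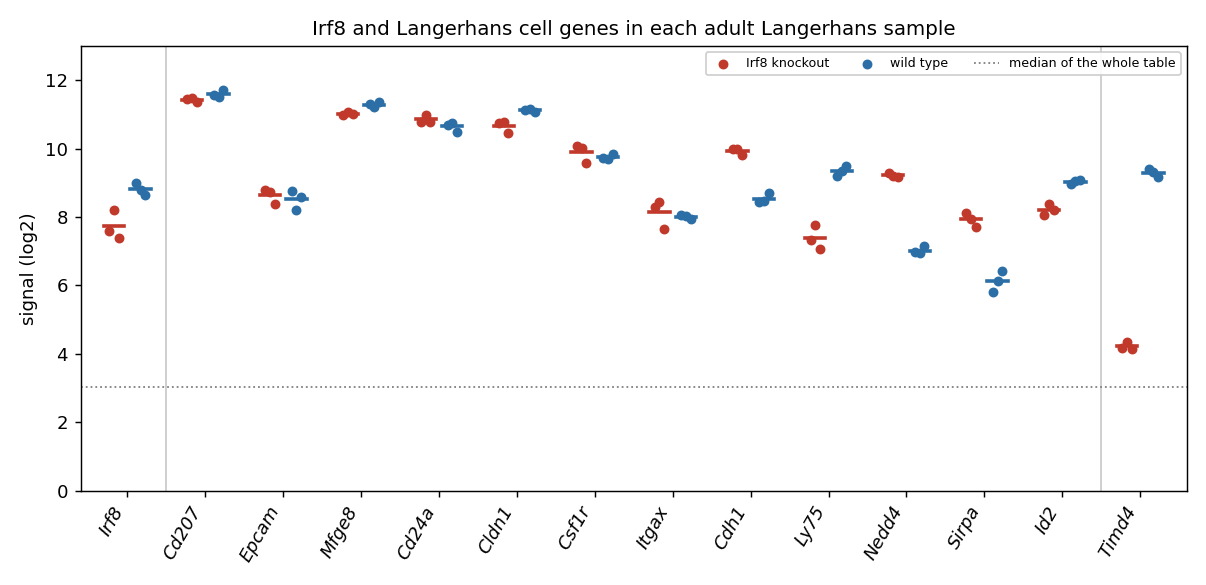
Log2 signal of Irf8, genes of Langerhans cells and Timd4 in each sample, with knockout samples in red left of wild-type samples in blue and a bar at each group's mean. The dotted line is the median of the whole table (3.041). Cd207 and Epcam differ little between the genotypes, Ly75 and Timd4 are lower and Nedd4 and Sirpa higher in every knockout sample.

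A large fall was that of Timd4, which encodes TIM-4, a macrophage receptor for phosphatidylserine on dying cells. It read 4.18, 4.34 and 4.13 in the knockout samples, against 9.41, 9.30 and 9.18 in the wild-type samples. The knockout samples thus lay about 5 log2 units below the wild-type samples, and about 1 log2 unit above the median of the table, with a change of -5.08 ± 0.40, adjusted p = 2.98e-16. Adult wild-type Kupffer cells had the highest mean among the other 25 groups (10.23). Havcr1, which encodes the related phosphatidylserine receptor TIM-1, read 2.37, 1.92 and 1.84 in the knockout samples, against 5.58, 5.19 and 5.60 in the wild-type samples (-3.41 ± 0.24, adjusted p = 2.46e-18). Both these receptors were thus lower in every knockout sample, and Havcr1 was below the median of the table in all 3. Of 24 tested phosphatidylserine and scavenger receptor genes, 8 were higher and 3 lower (33.3% and 12.5%; 7 and 3 after median centring), with a median of 0.14. Cd300a, an inhibitory lipid receptor, fell beside Timd4 (-1.36 ± 0.18, adjusted p = 6.49e-09), and Havcr2 was called lower with a smaller change (-0.79 ± 0.29, adjusted p = 0.0362), not called without knockout replicate 3 or wild-type replicate 1, 2 or 3 (adjusted p = 0.193 at most). Among those that rose were Scarb2, a lysosomal membrane protein (2.12 ± 0.15, adjusted p = 1.32e-17), and the ligands Gas6 (3.08 ± 0.38, adjusted p = 8.4e-10) and Pros1 (1.65 ± 0.21, adjusted p = 2.44e-09) that bridge dying cells to TAM receptors. Gas6 read 7.29, 7.34 and 8.06 in the knockout samples, against 4.41, 4.51 and 4.51 in the wild-type samples, without overlap. The receptors Axl (0.82 ± 0.39, adjusted p = 0.114) and Mertk (0.21 ± 0.33, adjusted p = 0.718) did not pass the test, though Axl did in a fit to the 6 Langerhans arrays alone (adjusted p = 0.0133), and Tyro3 was called with a small change (0.60 ± 0.20, adjusted p = 0.0178), not called without knockout replicate 1 or 2 or wild-type replicate 3 (adjusted p = 0.0857 at most).

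The promoters of Timd4 and of 2 immune sensor genes that also fell, Tlr6 and Ifi205, are shown as examples, chosen after their values were seen, because each holds the core of an interferon regulatory factor site. They run from 250 bases before to 50 after the gene's start in RefSeq (GRCm38.p6), 5′ to 3′ on the strand of the gene. Capitals mark GGAANNGAA, the core of the composite site of IRF8 with PU.1, and GAAANNGAA, the core of the interferon-stimulated response element, on either strand. Timd4 lies at chr11:46810549-46810848 on the plus strand, where a GAAANNGAA that starts at -77 overlaps a GGAANNGAA that starts at -72. Tlr6 lies at chr5:64959117-64959416 on the minus strand, with overlapping GAAANNGAA matches from -115 and -109. Ifi205 lies at chr1:174031706-174032005 on the minus strand, with GAAANNGAA matches from -134 and 25.
Timd4: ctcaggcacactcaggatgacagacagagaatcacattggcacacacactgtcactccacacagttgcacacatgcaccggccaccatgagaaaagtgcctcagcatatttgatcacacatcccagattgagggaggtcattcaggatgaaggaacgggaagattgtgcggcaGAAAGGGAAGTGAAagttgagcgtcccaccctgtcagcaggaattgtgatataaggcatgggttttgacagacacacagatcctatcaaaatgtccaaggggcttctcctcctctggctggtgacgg
Tlr6: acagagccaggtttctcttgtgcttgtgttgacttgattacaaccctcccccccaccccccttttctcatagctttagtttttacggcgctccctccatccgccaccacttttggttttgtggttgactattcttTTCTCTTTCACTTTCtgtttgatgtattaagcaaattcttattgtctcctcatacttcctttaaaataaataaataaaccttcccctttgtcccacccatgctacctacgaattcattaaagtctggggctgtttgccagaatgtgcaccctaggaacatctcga
Ifi205: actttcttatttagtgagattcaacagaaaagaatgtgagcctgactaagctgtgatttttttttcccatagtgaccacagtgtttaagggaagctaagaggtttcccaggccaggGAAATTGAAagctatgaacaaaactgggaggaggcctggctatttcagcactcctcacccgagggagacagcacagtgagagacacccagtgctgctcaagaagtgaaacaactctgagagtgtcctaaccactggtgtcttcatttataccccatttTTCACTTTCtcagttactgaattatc
Over all genes, such matches stood in similar shares of the promoters of genes that fell and of all promoters. GGAANNGAA stood in 115 of 1412 promoters of genes called lower (8.14%), in 154 of 2290 of genes called higher (6.72%) and in 983 of all 13145 tested genes with a promoter sequence (7.48%). GAAANNGAA stood in 99 (7.01%), 172 (7.51%) and 981 (7.46%) of the same promoters. A match describes the letters only and shows no binding.

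Of 27 tested transcription factors and signals listed as regulators of Langerhans cells, 7 were higher and 3 lower (25.9% and 11.1%; 6 and 5 after median centring), with a median of 0.18. Those higher include Klf4 (1.48, adjusted p = 0.000245) and Klf2 (1.46, adjusted p = 0.00176), which are also on the list of immediate early genes described below. Acvr1b (1.43 ± 0.23, adjusted p = 1.31e-06) and Bmpr1a (1.56 ± 0.34, adjusted p = 0.000245), type I receptors for activins and bone morphogenetic proteins, rose. Tgfbr1, the type I receptor for TGF-β, fell (-0.69 ± 0.17, adjusted p = 0.00102) and Tgfbr2, its partner, rose (0.72 ± 0.18, adjusted p = 0.00116), the second not after median centring (adjusted p = 0.0579). Cebpa, a myeloid factor, read 6.66, 6.68 and 6.28 in the knockout samples, against 5.07, 5.24 and 6.14 in the wild-type samples, and was called higher (1.06 ± 0.23, adjusted p = 0.000233). Mtor, the growth kinase, fell (-0.94 ± 0.17, adjusted p = 9.73e-06) and Lamtor2, an adaptor of its complex on lysosomes, rose (0.79 ± 0.16, adjusted p = 8.96e-05). Id2, which Langerhans cells need, was called lower by a small margin (-0.82 ± 0.32, adjusted p = 0.0443), and the call was lost when any 1 of the 6 samples was left out. Runx3 (0.55 ± 0.33, adjusted p = 0.229) and Spi1, which encodes PU.1 (-0.33 ± 0.15, adjusted p = 0.0989), both needed by Langerhans cells, did not pass the test, and neither did Ahr, the aryl hydrocarbon receptor (-0.04 ± 0.30, adjusted p = 0.955). After median centring Spi1 was called lower (-0.61, adjusted p = 0.000999).

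Among 13 tested interferon regulatory factors and their partners, 1 was higher and 1, Irf8 itself, lower (7.69% and 7.69%; 1 and 3 after median centring). Irf1, an activator induced by interferon-γ, read 7.41, 7.23 and 7.45 in the knockout samples, against 5.64, 5.57 and 5.61 in the wild-type samples. All knockout samples were above all wild-type samples by more than 1 log2 unit (1.76 ± 0.23, adjusted p = 4.27e-09). Irf4, the closest relative of Irf8, was at 8.42 ± 0.21 in the knockout and 8.32 ± 0.15 in the wild type (0.11 ± 0.31, adjusted p = 0.861), and Batf3, a partner of both, ranged from 2.92 to 5.12 in the knockout and from 3.21 to 4.66 in the wild type (0.14 ± 0.40, adjusted p = 0.858).

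Of 23 tested genes of dendritic cell maturation and migration, 4 were higher and 6 lower (17.4% and 26.1%; 4 and 9 after median centring), with a median of -0.33. Ccr7, the receptor that leads migrating Langerhans cells to lymph nodes, read 6.56, 7.27 and 5.75 in the knockout samples, against 8.69, 9.35 and 9.47 in the wild-type samples. Cxcr4, which also acts in their exit from the epidermis, read 6.39, 5.95 and 5.27 in the knockout samples, against 7.60, 7.85 and 7.91 in the wild-type samples. Ccl22, a chemokine of activated Langerhans cells, read 7.81, 7.39 and 6.38 in the knockout samples, against 9.82, 9.96 and 10.33 in the wild-type samples. In all these genes every knockout sample was below every wild-type sample. The changes were -2.64 ± 0.41, adjusted p = 4.38e-07 for Ccr7, -1.92 ± 0.33, adjusted p = 3.02e-06 for Cxcr4 and -2.84 ± 0.77, adjusted p = 0.00308 for Ccl22. Samsn1, an adaptor, fell with them (-1.62 ± 0.18, adjusted p = 1.15e-10). The co-stimulatory receptor Cd40 (-1.09 ± 0.36, adjusted p = 0.016) and Relb, an NF-κB subunit of mature dendritic cells (-0.82 ± 0.27, adjusted p = 0.0181), were lower too, Cd40 not called without knockout replicate 3 or wild-type replicate 2 (adjusted p = 0.0755 at most) and Relb not called without knockout replicate 3 or wild-type replicate 3 (adjusted p = 0.105 at most). The co-stimulatory ligands Cd80 (-0.45 ± 0.31, adjusted p = 0.311) and Cd86 (-0.41 ± 0.23, adjusted p = 0.184) and the maturation marker Cd83 (-0.09 ± 0.30, adjusted p = 0.883) did not pass the test. Cd86 was called lower after median centring (adjusted p = 0.012), and in a fit to the 6 Langerhans arrays alone Cd80 (adjusted p = 0.0135) and Cd86 (adjusted p = 0.0315) were. Ccl17, which signals through the same receptor as Ccl22, was called in the other direction. It read 7.15, 8.55 and 4.72 in the knockout samples, against 4.84, 4.50 and 4.50 in the wild-type samples. Knockout sample 3 lay within the wild-type range and the others above it, and the change of 2.19 ± 0.53, adjusted p = 0.000842 was not called without knockout replicate 2 (adjusted p = 0.0681). Markers of dermal dendritic cells had a summed linear signal of 682 to 913 in the knockout samples, against 1236 to 1511 in the wild-type samples. Ccr7 is itself counted in this sum, so the sum gives no reading of such cells apart from the fall of Ccr7. The median change of these markers was -0.28, and the part of such cells in these falls was not tested.

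Inflammatory cytokine genes counted 3 higher and 4 lower of 20 tested (15% and 20%; 3 and 6 after median centring). Il10, an inhibitory cytokine, read 6.17, 5.75 and 5.60 in the knockout samples, against 8.11, 8.36 and 8.71 in the wild-type samples. Il1b, the cytokine that starts Langerhans cell migration, read 8.98, 8.69 and 8.63 in the knockout samples, against 9.83, 9.61 and 10.00 in the wild-type samples. Both were lower in each knockout sample (-2.55 ± 0.53, adjusted p = 0.000102 and -1.05 ± 0.30, adjusted p = 0.0046), as was Il18, a cytokine matured by inflammasomes (-1.13 ± 0.32, adjusted p = 0.00414), not called without knockout replicate 3 (adjusted p = 0.0589). Il1rn, the antagonist of the IL-1 receptor, was called lower (-0.88 ± 0.32, adjusted p = 0.0307), not called without knockout replicate 1 or 2 or wild-type replicate 2 or 3 (adjusted p = 0.121 at most). Il6 read 4.37, 4.15 and 5.25 in the knockout samples, against 2.49, 2.11 and 1.34 in the wild-type samples, so that all wild-type samples were below the median of the table and all knockout samples above it (2.61 ± 0.60, adjusted p = 0.000493). Il15 (1.47 ± 0.25, adjusted p = 4.83e-06) and Il23a (1.31 ± 0.31, adjusted p = 0.000729) were the others that rose. Tnf was near 10 log2 units in both groups (0.33 ± 0.29, adjusted p = 0.452).

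Of 29 tested receptors for cytokines and chemokines (with a few ligands), 6 were higher and 12 lower (20.7% and 41.4%; 6 and 12 after median centring). Csf2rb, the β chain shared by the receptors for GM-CSF, IL-3 and IL-5, read 7.69, 8.25 and 7.75 in the knockout samples, against 9.51, 9.52 and 9.84 in the wild-type samples. Csf2rb2, its relative in the IL-3 receptor, read 8.57, 9.09 and 8.72 in the knockout samples, against 10.48, 10.39 and 10.56 in the wild-type samples. No knockout sample of either reached the wild type (-1.73 ± 0.28, adjusted p = 1.09e-06 and -1.68 ± 0.30, adjusted p = 1.05e-05), though the array may read these close paralogs together. Csf2ra, the α chain for GM-CSF, was close to the threshold (-0.58 ± 0.22, adjusted p = 0.0443) and lost the call when any 1 of the 6 samples was left out. Flt3, the receptor for the growth factor of dendritic cells, read 4.02, 4.44 and 3.40 in the knockout samples, against 5.95, 5.67 and 5.88 in the wild-type samples (-1.88 ± 0.34, adjusted p = 9.11e-06). Tnfrsf1b, a TNF receptor, read 7.86, 8.08 and 7.92 in the knockout samples, against 9.70, 9.83 and 9.69 in the wild-type samples (-1.78 ± 0.22, adjusted p = 1.12e-09). Il10rb, a chain shared by receptors for IL-10 and related cytokines, fell as well (-1.17 ± 0.19, adjusted p = 1.21e-06), as did Ccr1, a receptor for inflammatory chemokines (-2.28 ± 0.43, adjusted p = 1.97e-05).

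The chains of the interferon receptors moved in different directions. Ifnar1 read 8.01, 8.19 and 8.03 in the knockout samples, against 8.87, 9.0 and 9.03 in the wild-type samples. Ifnar2 read 8.58, 8.94 and 8.67 in the knockout samples, against 9.68, 9.46 and 9.78 in the wild-type samples. Both chains of the type I receptor were thus lower in all knockout samples (-0.89 ± 0.18, adjusted p = 4.96e-05 and -0.91 ± 0.11, adjusted p = 7.37e-10), as was Ifngr2, a chain of the interferon-γ receptor (-0.86 ± 0.15, adjusted p = 3.21e-06). Ifngr1, the chain that binds interferon-γ, read 7.13, 7.34 and 8.06 in the knockout samples, against 5.47, 5.04 and 4.44 in the wild-type samples. Ifngr1 was higher in each knockout sample (2.52 ± 0.17, adjusted p = 1.18e-18), with knockout sample 3 the highest. What part other cells in the sort have in this rise was not tested. Il6ra (1.60 ± 0.20, adjusted p = 1.12e-09) and Il13ra1 (1.38 ± 0.26, adjusted p = 1.67e-05) rose too. Il34, the ligand of CSF1R that keratinocytes make, read 6.26, 6.13 and 6.28 in the knockout samples, against 2.40, 2.41 and 3.68 in the wild-type samples (3.39 ± 0.28, adjusted p = 1.26e-15).

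**Figure D2:**
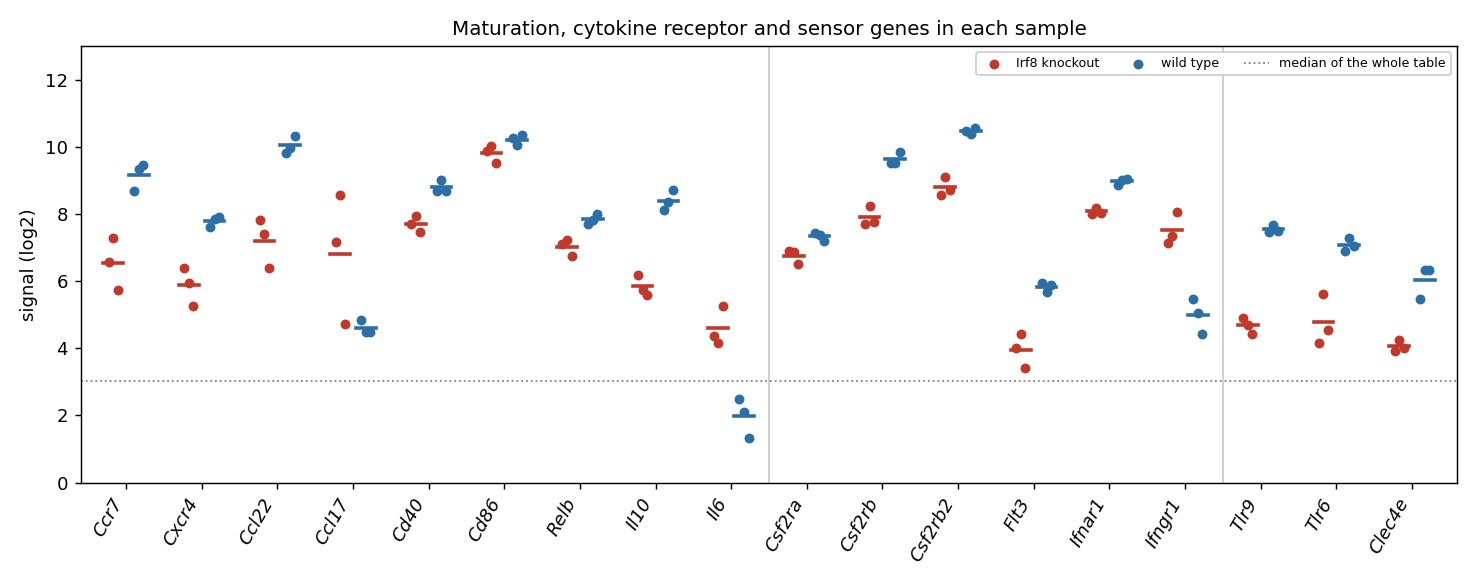
Log2 signal of maturation genes and cytokines, cytokine receptors, and sensors in each sample, with knockout samples in red left of wild-type samples in blue and a bar at each group's mean. Ccr7, Cxcr4, Ccl22, Il10, Csf2rb, Flt3, Tlr9 and Tlr6 are lower and Il6 and Ifngr1 higher in every knockout sample, while Cd86 differs little.

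Pattern recognition receptors counted 7 higher and 9 lower of 32 tested (21.9% and 28.1%; 5 and 10 after median centring). Tlr9, the endosomal receptor for unmethylated DNA, read 4.91, 4.70 and 4.43 in the knockout samples, against 7.47, 7.68 and 7.50 in the wild-type samples. Tlr6, which pairs with TLR2 to sense bacterial lipopeptides, read 4.15, 5.63 and 4.54 in the knockout samples, against 6.91, 7.28 and 7.05 in the wild-type samples. In neither gene did the groups overlap, and knockout sample 2 was the highest of the knockout for Tlr6. The changes were -2.87 ± 0.30, adjusted p = 1.05e-11 and -2.31 ± 0.31, adjusted p = 1.87e-08. Clec4e (-1.98 ± 0.44, adjusted p = 0.00025) and Clec4d (-1.56 ± 0.36, adjusted p = 0.000464), which encode the glycolipid receptors Mincle and MCL, fell, as did Nod2, a sensor of muramyl dipeptide (-1.24 ± 0.32, adjusted p = 0.00187), on 1 of its 2 probes. Naip5 (-1.32 ± 0.30, adjusted p = 0.000311) and Naip6 (-1.09 ± 0.31, adjusted p = 0.00454), close paralogs that sense flagellin, were also lower. In the other direction Tlr2 read 7.37, 7.23 and 7.11 in the knockout samples, against 6.23, 6.26 and 6.16 in the wild-type samples (1.02 ± 0.20, adjusted p = 3.82e-05). Myd88, the adaptor of most Toll-like receptors, was slightly higher (0.65 ± 0.17, adjusted p = 0.00199, adjusted p = 0.0789 after median centring). Cd180, a relative of TLR4, was called higher with knockout sample 3, at 5.65, just under the highest wild-type sample, at 5.67 (0.94 ± 0.21, adjusted p = 0.000241).

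Genes that type I interferon induces gave 6 higher and 2 lower of 31 tested (19.4% and 6.45%; 5 and 5 after median centring), shares near those of all genes. Their median of 0.36, against -0.01 for all genes, was 0.07 after median centring. Oas2, a double-stranded RNA sensor, read 6.75, 6.09 and 5.68 in the knockout samples, against 5.15, 4.51 and 4.42 in the wild-type samples (1.48 ± 0.30, adjusted p = 5.73e-05). Ddx58, which encodes RIG-I, read 5.47, 5.24 and 5.40 in the knockout samples, against 4.20, 3.86 and 4.27 in the wild-type samples (1.26 ± 0.22, adjusted p = 6.35e-06). Both were higher in each knockout sample, with Eif2ak2, the kinase PKR (0.95 ± 0.21, adjusted p = 0.000263), and Ifih1, the sensor MDA5 (0.94 ± 0.26, adjusted p = 0.00312). Ifit2 (-0.96 ± 0.25, adjusted p = 0.00198) and Mx2 (-1.04 ± 0.35, adjusted p = 0.0186) were called lower at signals near the median of the table (Ifit2 1.85, 1.46 and 2.30 in the knockout and 2.81, 2.52 and 3.16 in the wild type), Mx2 not called without knockout replicate 1 or 3 or wild-type replicate 1 (adjusted p = 0.0888 at most). Isg15 did not pass the test (0.63 ± 0.34, adjusted p = 0.176, with adjusted p = 0.0278 from the 6 Langerhans arrays alone), nor did Irf7, the factor that amplifies interferon genes (0.54 ± 0.27, adjusted p = 0.144). Oas1f, of the oligoadenylate synthetase family, read 6.95, 6.99 and 6.99 in the knockout samples, against 2.69, 2.40 and 2.89 in the wild-type samples, and the highest mean in the other 25 groups was 2.45. All knockout samples were above the median of the table and all wild-type samples below it (4.31 ± 0.23, adjusted p = 2.17e-23).

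Interferon-inducible GTPases and genes of the Ifi200 family counted 2 higher and 3 lower of 17 tested (11.8% and 17.6%; 1 and 4 after median centring), and the 3 that fell were all of the Ifi200 family of DNA-binding proteins. Ifi205 read 6.08, 7.70 and 6.63 in the knockout samples, against 9.55, 8.76 and 9.14 in the wild-type samples. Ifi207 read 7.67, 8.59 and 8.13 in the knockout samples, against 9.46, 9.46 and 9.28 in the wild-type samples. Ifi204 read 2.13, 3.48 and 3.16 in the knockout samples, against 4.35, 4.20 and 5.12 in the wild-type samples. No knockout sample of these genes reached the wild type, with changes of -2.35 ± 0.60, adjusted p = 0.0016, -1.28 ± 0.36, adjusted p = 0.00413 and -1.63 ± 0.43, adjusted p = 0.00203, although near-identical members of this family may share probe signal. Gbp7, a guanylate-binding protein, was the GTPase that rose in every comparison of samples (1.72 ± 0.29, adjusted p = 2.38e-06). Irgm1 was called with overlapping groups (0.86 ± 0.30, adjusted p = 0.0252), not called without knockout replicate 1 or wild-type replicate 1 (adjusted p = 0.337 at most).

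MHC class II genes were at high levels in both genotypes: H2-Aa was at 10.61 ± 0.11 in the knockout and 10.79 ± 0.07 in the wild type. H2-Ab1 was at 11.23 ± 0.05 in the knockout and 11.33 ± 0.11 in the wild type, and H2-Eb1 at 10.95 ± 0.10 in the knockout and 11.40 ± 0.27 in the wild type. None of these passed the test, with adjusted p = 0.785, 0.878 and 0.376. Of 17 tested genes of class II presentation, 3 were higher and 2 lower (17.6% and 11.8%; 3 and 6 after median centring), shares near those of all genes. H2-DMa, part of the editor that loads peptide, read 9.84, 9.84 and 9.59 in the knockout samples, against 8.71, 8.62 and 8.63 in the wild-type samples. H2-Oa, part of its inhibitor, read 7.31, 7.04 and 6.57 in the knockout samples, against 5.36, 5.29 and 5.25 in the wild-type samples. Both were higher in each knockout sample (1.10 ± 0.27, adjusted p = 0.000956 and 1.67 ± 0.37, adjusted p = 0.000292), as was Marchf1, the ligase that sends class II molecules to degradation (0.86 ± 0.21, adjusted p = 0.00104). Lgmn, an endosomal protease, fell (-1.37 ± 0.25, adjusted p = 1.14e-05), and H2-Eb2 was called lower (-1.07 ± 0.35, adjusted p = 0.0165), not called without knockout replicate 2 or wild-type replicate 3 (adjusted p = 0.153 at most). Ciita, the master regulator of the class II genes, was at 7.01 ± 0.12 in the knockout and 7.73 ± 0.15 in the wild type and not called (adjusted p = 0.109).

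In class I processing, 2 of 16 tested genes were higher and 4 lower (12.5% and 25%; 2 and 7 after median centring). Psmb9, an immunoproteasome subunit, was higher, at 9.01, 9.09 and 8.73 in the knockout samples, against 7.80, 7.21 and 7.37 in the wild-type samples (1.48 ± 0.19, adjusted p = 2.73e-09). Erap1, which trims peptides, was also higher (0.90 ± 0.16, adjusted p = 5.35e-06). Tap1, a chain of the peptide transporter, was lower, at 6.24, 6.55 and 6.09 in the knockout samples, against 7.15, 7.28 and 7.25 in the wild-type samples (-0.93 ± 0.20, adjusted p = 0.00016). So were the endoplasmic reticulum chaperones Canx (-0.55 ± 0.10, adjusted p = 2.02e-05), Pdia3 (-0.65 ± 0.13, adjusted p = 5.94e-05) and Calr (-0.40 ± 0.12, adjusted p = 0.0071), the last not called without wild-type replicate 3 (adjusted p = 0.068).

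Cathepsin and lysosome genes counted 11 higher and 5 lower of 28 tested (39.3% and 17.9%; 5 and 8 after median centring), so that the balance of directions depends on scale. Ctsd, a major lysosomal protease, read 8.41, 8.65 and 8.87 in the knockout samples, against 7.63, 6.99 and 7.80 in the wild-type samples (1.17 ± 0.13, adjusted p = 8.03e-11). Grn, progranulin, read 9.76, 9.81 and 9.55 in the knockout samples, against 8.89, 8.69 and 8.81 in the wild-type samples (0.91 ± 0.14, adjusted p = 2.03e-07), and Gpnmb, a lysosomal membrane glycoprotein, rose too (1.84 ± 0.39, adjusted p = 0.000161). Ctsz, another protease, was the largest fall after Lgmn, at 8.70, 8.98 and 8.90 in the knockout samples, against 10.06, 10.19 and 10.29 in the wild-type samples (-1.32 ± 0.19, adjusted p = 6.13e-08). All these kept their call after median centring.

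Smaller lists of phagocyte genes were mixed. Among Fc receptors, 2 of 9 were higher and 2 lower (22.2% and 22.2%; 2 and 2 after median centring): the activating Fcgr3 rose (1.16 ± 0.21, adjusted p = 1.34e-05) with Fcgrt, the neonatal Fc receptor (1.09 ± 0.25, adjusted p = 0.000329), and the inhibitory Fcgr2b fell (-1.21 ± 0.28, adjusted p = 0.000599). Complement genes gave 4 higher and 2 lower of 17 (23.5% and 11.8%; 3 and 2 after median centring). C3ar1, the receptor for C3a, read 4.12, 4.77 and 4.08 in the knockout samples, against 6.18, 6.34 and 6.10 in the wild-type samples (-1.88 ± 0.38, adjusted p = 5.82e-05). C1qa was lower (-1.20 ± 0.31, adjusted p = 0.00154) and Itgam, the α chain of complement receptor 3, higher (0.96 ± 0.25, adjusted p = 0.00178). Cholesterol and lipid genes gave 5 higher and 2 lower of 21 (23.8% and 9.52%; 3 and 4 after median centring). Apoc1 read 10.07, 10.14 and 10.29 in the knockout samples, against 8.34, 8.38 and 8.02 in the wild-type samples (1.92 ± 0.25, adjusted p = 4.21e-09). Sqle, an enzyme of sterol synthesis, read 6.81, 7.34 and 6.60 in the knockout samples, against 8.46, 8.62 and 8.73 in the wild-type samples (-1.69 ± 0.29, adjusted p = 3.25e-06). Adhesion genes gave 5 higher and 6 lower of 29 (17.2% and 20.7%; 3 and 8 after median centring), with Itga4 (-1.17 ± 0.20, adjusted p = 4.94e-06), Itga5 (-1.37 ± 0.31, adjusted p = 0.000348) and Alcam (-1.22 ± 0.25, adjusted p = 7.04e-05) lower. Itga6, a basal keratinocyte integrin as well, was higher (2.48 ± 0.25, adjusted p = 3.04e-12). Of 17 apoptosis and survival genes, 1 was higher and 5 lower (5.88% and 29.4%; 0 and 7 after median centring). Among those lower were the survival genes Cflar, at 6.06, 6.62 and 6.36 in the knockout samples, against 7.63, 7.66 and 7.77 in the wild-type samples (-1.34 ± 0.19, adjusted p = 3.02e-08), Birc3 (-0.84 ± 0.19, adjusted p = 0.000279) and Xiap (-0.70 ± 0.19, adjusted p = 0.00324).

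**Figure D3:**
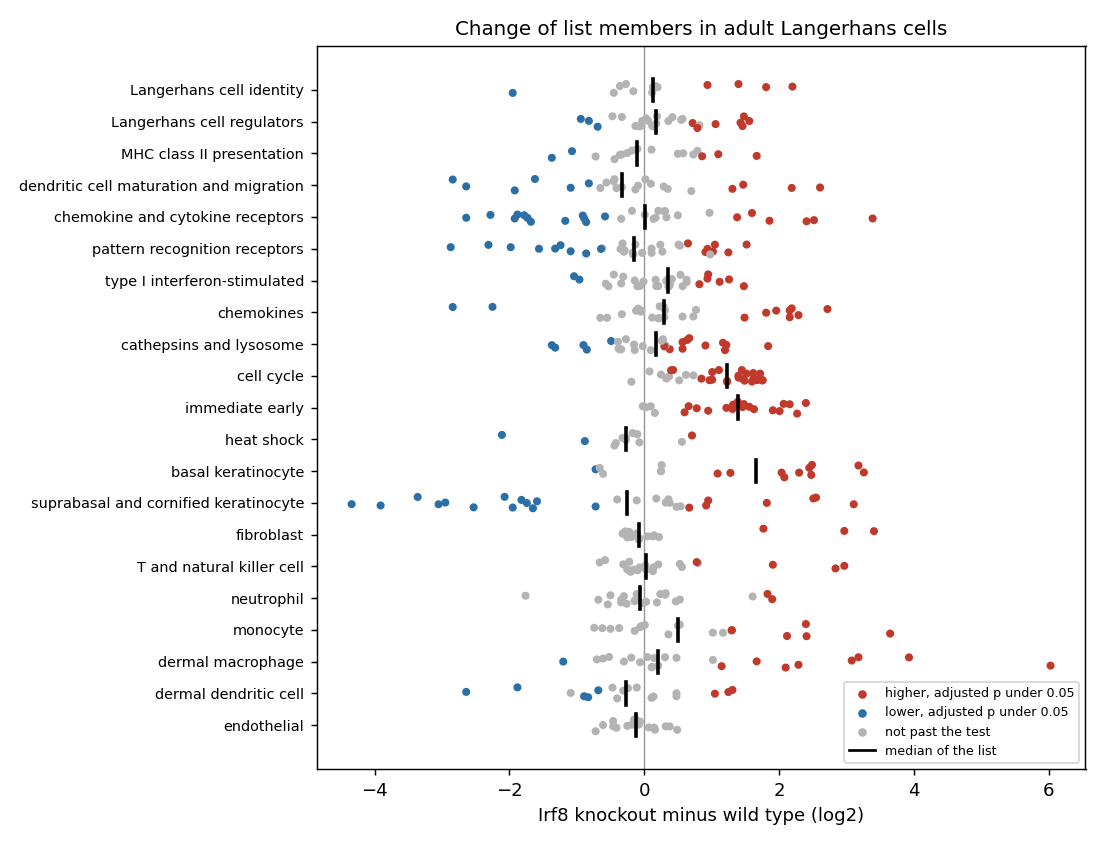
Change of each tested member of 21 gene lists, knockout minus wild type in log2 units, with called members in red (higher) or blue (lower) and the list's median as a black bar. Immediate early, cell cycle and basal keratinocyte genes have medians over 1, while endothelial genes hold no called member.

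The list with the largest share of rises was that of immediate early genes, which cells switch on within minutes of a stimulus and which also respond to tissue digestion. Of 23 tested, 19 were higher and 0 lower (82.6% and 0%; 15 and 0 after median centring), with a median of 1.39. Their mean level ran from 9.30 to 9.58 in the knockout samples, against 7.96 to 8.31 in the wild-type samples. Fos read 9.45, 9.18 and 9.48 in the knockout samples, against 6.69, 7.37 and 7.56 in the wild-type samples. Egr1 read 10.71, 10.31 and 10.68 in the knockout samples, against 8.28, 8.67 and 8.71 in the wild-type samples. Fosb read 10.52, 10.24 and 10.17 in the knockout samples, against 7.79, 8.02 and 8.30 in the wild-type samples. In each, all knockout samples were above the wild type, with changes of 2.16 ± 0.29, adjusted p = 9.28e-09, 2.01 ± 0.34, adjusted p = 3.01e-06 and 2.27 ± 0.33, adjusted p = 1.32e-07. What part digestion has in these levels was not tested. Among 12 tested heat shock genes, which digestion can also induce, 1 was higher and 2 lower (8.33% and 16.7%; 0 and 8 after median centring), with a median of -0.27. Hsph1, a chaperone, read 6.40, 5.87 and 5.61 in the knockout samples, against 7.96, 8.08 and 8.17 in the wild-type samples (-2.11 ± 0.31, adjusted p = 9.61e-08). Hspa1a (-0.27 ± 0.43, adjusted p = 0.723) and Hspa1b (-0.42 ± 0.52, adjusted p = 0.63) did not pass the test. Dnajb1 was the member that was higher (0.71 ± 0.24, adjusted p = 0.0194), not called without knockout replicate 1 or wild-type replicate 1 or 2 (adjusted p = 0.1 at most). Hmox1 fell (-0.88 ± 0.26, adjusted p = 0.00611), not called without wild-type replicate 3 (adjusted p = 0.0578).

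Cell cycle genes rose as well, 23 of 31 tested being higher and 0 lower (74.2% and 0%; 20 and 0 after median centring), with a median of 1.23. Their mean level was 5.35, 5.58 and 5.80 in the knockout samples, against 4.49, 4.52 and 4.52 in the wild-type samples, without overlap. Cdk1, the kinase of mitotic entry, read 5.97, 6.36 and 6.25 in the knockout samples, against 4.24, 4.69 and 4.37 in the wild-type samples. Top2a, a topoisomerase of dividing cells, read 6.26, 6.21 and 6.91 in the knockout samples, against 5.38, 4.73 and 4.19 in the wild-type samples. Mcm6, of the replicative helicase, read 5.61, 6.25 and 6.62 in the knockout samples, against 4.54, 4.96 and 4.41 in the wild-type samples. In these genes too the groups did not overlap (1.76 ± 0.29, adjusted p = 1.66e-06, 1.69 ± 0.31, adjusted p = 1.29e-05 and 1.52 ± 0.22, adjusted p = 8.7e-08). Knockout sample 3 had the highest level in Top2a and Mcm6, and was also the highest in basal keratinocyte genes.

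Genes of keratinocytes, the neighbours of Langerhans cells in the epidermis, were read in 2 lists. Of 16 tested markers of basal keratinocytes, 10 were higher and 1 lower (62.5% and 6.25%; 10 and 3 after median centring), with a median of 1.66. Their mean level was 6.96, 6.80 and 7.35 in the knockout samples and 5.59, 5.83 and 5.67 in the wild-type samples. Their summed linear signal was 4816 to 6150 in the knockout and 2103 to 2298 in the wild type. No marker was below the median of the table on all 6 arrays. Trp63, the factor that keeps basal cells, read 7.03, 7.10 and 7.31 in the knockout samples, against 4.22, 4.13 and 3.53 in the wild-type samples. Krt15, a basal keratin, read 10.19, 10.26 and 10.65 in the knockout samples, against 6.95, 7.44 and 6.93 in the wild-type samples. Col17a1, a hemidesmosome collagen, read 8.23, 8.01 and 9.01 in the knockout samples, against 5.72, 6.05 and 6.12 in the wild-type samples. Their changes were 3.18 ± 0.19, adjusted p = 6.39e-21, 3.26 ± 0.21, adjusted p = 1.25e-19 and 2.45 ± 0.24, adjusted p = 4.41e-13. Krt14, the main basal keratin, was high in both genotypes, at 10.64, 10.81 and 10.73 in the knockout samples, against 9.82, 9.54 and 9.55 in the wild-type samples (1.09 ± 0.28, adjusted p = 0.00157).

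Markers of suprabasal and cornified keratinocytes counted 7 higher and 13 lower of 28 tested (25% and 46.4%; 4 and 13 after median centring), with a median of -0.26. Their summed linear signal was 7406 to 8614 in the knockout and 5790 to 7102 in the wild type. The suprabasal keratins Krt1 (2.55 ± 0.28, adjusted p = 3.81e-11) and Krt2 (1.82 ± 0.20, adjusted p = 8.54e-11), the desmosomal cadherin Dsg1a (2.51 ± 0.31, adjusted p = 8.4e-10) and the transglutaminase Tgm3 (3.11 ± 0.32, adjusted p = 3.39e-12) rose. Several genes of small proline-rich proteins fell: Sprr2h read 1.43, 2.05 and 2.36 in the knockout samples, against 5.94, 5.79 and 5.82 in the wild-type samples. Sprr2e read 2.56, 1.81 and 2.66 in the knockout samples, against 6.87, 6.66 and 6.51 in the wild-type samples. Sprr1a read 9.17, 7.59 and 6.68 in the knockout samples, against 10.77, 10.93 and 10.58 in the wild-type samples. The highest mean of Sprr2e in the 25 other groups was 2.50, close to its level in the knockout. Sprr2d (-3.36 ± 0.39, adjusted p = 1.85e-10), Sprr2f (-3.49 ± 0.28, adjusted p = 4.01e-16) and Sprr1b (-2.53 ± 0.54, adjusted p = 0.000148) fell too, and members of the Sprr2 family are close paralogs whose signals the array may not separate. Loricrin (Lor, -1.74 ± 0.27, adjusted p = 3.38e-07), involucrin (Ivl, -1.65 ± 0.34, adjusted p = 7.59e-05) and the desquamation protease Klk7 (-3.05 ± 0.27, adjusted p = 2.96e-14) fell with them.

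**Figure D4:**
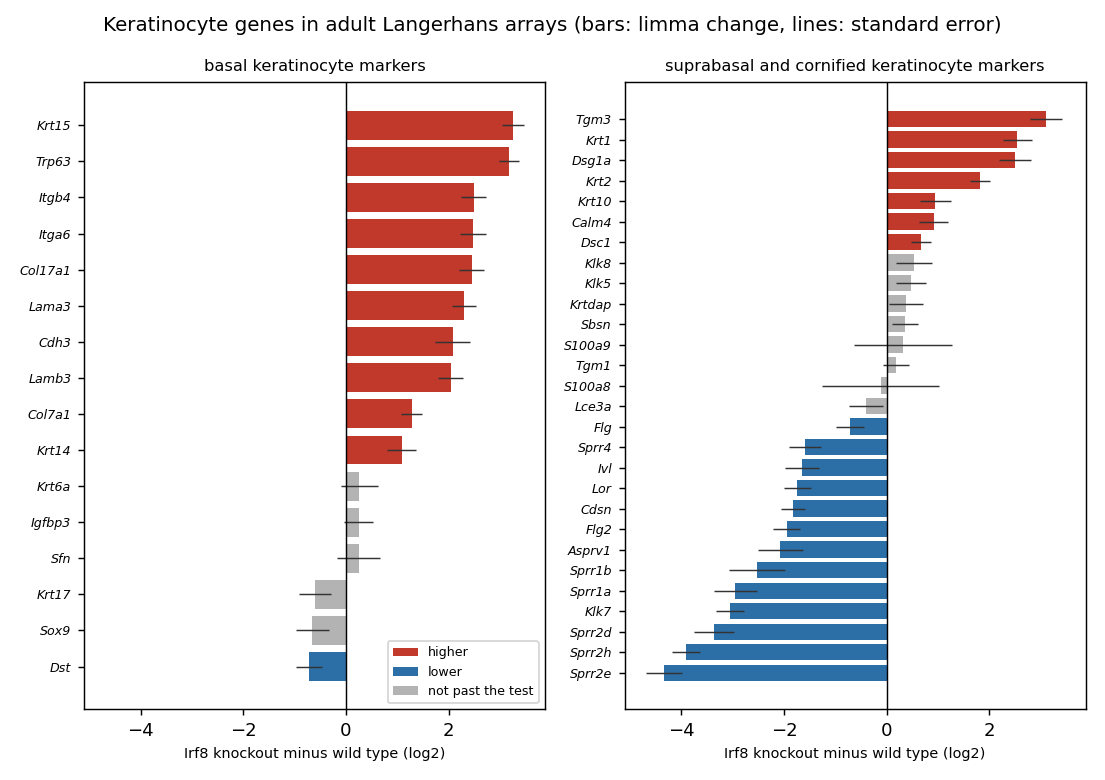
Change of keratinocyte markers, knockout minus wild type in log2 units, for basal markers (left) and suprabasal and cornified markers (right), with bars coloured by the call and lines giving the standard error. Basal markers mostly lie right of 0, from Krt15 at 3.26, and the markers of the other list run from Tgm3 at 3.11 to Sprr2e at -4.34.

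Other large rises were of genes on none of the lists. Tnfrsf19, a TNF receptor relative, read 6.26, 6.43 and 6.57 in the knockout samples, against 1.77, 2.59 and 2.81 in the wild-type samples. Pou2f3, a POU factor of the epidermis, read 6.36, 6.46 and 7.0 in the knockout samples, against 2.85, 3.26 and 3.28 in the wild-type samples. Fgfr2, a receptor for fibroblast growth factors, read 6.58, 6.98 and 7.98 in the knockout samples, against 3.42, 3.38 and 4.46 in the wild-type samples. The highest means of these 3 in the other groups of the series were 3.25, 2.12 and 3.27, and their changes were 4.03 ± 0.27, adjusted p = 2.93e-19, 3.48 ± 0.20, adjusted p = 6.7e-22 and 3.43 ± 0.30, adjusted p = 1.73e-14. Il20ra, a receptor chain for IL-20 (3.88 ± 0.28, adjusted p = 8.27e-18), Slitrk6 (3.67 ± 0.18, adjusted p = 1.85e-24), Antxr1, an anthrax toxin receptor (3.66 ± 0.26, adjusted p = 1.26e-17), Hlf, a circadian factor (3.80 ± 0.34, adjusted p = 3.71e-14), and Capns2, a calpain subunit (3.58 ± 0.35, adjusted p = 5.37e-13), rose by similar amounts. They were higher in the same samples as the basal keratinocyte markers. The part of keratinocyte RNA in them, in Il34, Ifngr1, Gas6, Bmpr1a, the cell cycle genes or other genes that rose was not tested.

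Further large rises were of genes on the lists of alternative activation, monocyte and dermal macrophage genes. Retnla, a resistin-like protein of alternatively activated macrophages, read 9.21, 6.96 and 7.58 in the knockout samples, against 2.35, 1.61 and 1.70 in the wild-type samples. Lyz1, lysozyme, read 9.22, 6.17 and 7.44 in the knockout samples, against 2.53, 2.77 and 3.11 in the wild-type samples. Fn1, fibronectin, read 7.55, 5.31 and 5.83 in the knockout samples, against 2.32, 2.64 and 2.77 in the wild-type samples. The wild-type samples of all these were near or below the median of the table and the knockout samples well above it, and knockout sample 1 was the highest each time (6.03 ± 0.79, adjusted p = 6.34e-09, 4.81 ± 0.52, adjusted p = 2.57e-11 and 3.65 ± 0.38, adjusted p = 4.2e-12). Without knockout replicate 1 every one of them was still called. Maf, a transcription factor of macrophages, read 8.43, 8.57 and 9.35 in the knockout samples, against 3.61, 5.18 and 5.76 in the wild-type samples, with knockout sample 3 highest (3.93 ± 0.37, adjusted p = 2.83e-13). Lyz2, the myeloid lysozyme, was called from a higher wild-type level, at 9.77, 8.75 and 9.14 in the knockout samples, against 7.41, 6.92 and 6.96 in the wild-type samples (2.12 ± 0.19, adjusted p = 5.13e-14). Lyz1 and Lyz2 are close paralogs whose signals the array may not separate.

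Monocyte markers gave 6 higher and 0 lower of 19 (31.6% and 0%; 5 and 2 after median centring). Their summed linear signal was 3726 to 4559 in the knockout and 2488 to 2880 in the wild type. The rises include Lyz2, Fn1 and Nr4a1 (2.40, adjusted p = 6.32e-11), the last also on the immediate early list. Plac8, Vcan, Cd14, S100a4 and Cx3cr1 were not called on the deposited scale. Ccr2, the receptor that brings monocytes into tissue, read 5.63, 4.17 and 4.34 in the knockout samples, against 2.21, 2.60 and 2.10 in the wild-type samples (2.41 ± 0.32, adjusted p = 1.42e-08). Ly6c2, a defining marker of classical monocytes, read 2.37, 4.73 and 5.0 in the knockout samples, against 2.71, 3.32 and 2.58 in the wild-type samples and was not called (1.17 ± 0.68, adjusted p = 0.222). Of 23 dermal macrophage markers, 8 were higher and 1 lower (34.8% and 4.35%; 8 and 2 after median centring). Their summed linear signal was 1183 to 1691 in the knockout and 378 to 461 in the wild type. Among them Cbr2, a carbonyl reductase, read 6.29, 6.78 and 7.36 in the knockout samples, against 4.03, 3.45 and 3.42 in the wild-type samples (3.18 ± 0.46, adjusted p = 7.48e-08). Mrc1, the mannose receptor, read 5.80, 4.98 and 4.51 in the knockout samples, against 3.19, 2.40 and 3.40 in the wild-type samples (2.10 ± 0.38, adjusted p = 1.15e-05). Cd163, the haemoglobin scavenger receptor, read 5.30, 4.01 and 4.0 in the knockout samples, against 2.77, 2.38 and 3.14 in the wild-type samples (1.67 ± 0.44, adjusted p = 0.00214, not called without knockout replicate 1 (adjusted p = 0.0504)). Mertk, which defines tissue macrophages, read 2.99, 2.13 and 3.50 in the knockout samples, against 2.98, 2.15 and 2.86 in the wild-type samples, near the median of the table throughout (0.21 ± 0.33, adjusted p = 0.718). The dermal macrophage marker called lower was C1qa (-1.20, adjusted p = 0.00154). C1qb, C1qc, Folr2, Lyve1, Stab1, Ms4a7 and Fcgr1, of the same list, were not called on the deposited scale. Retnla and Maf, described above, are counted in its summed signal. What part monocytes or dermal macrophages in the sort have in these changes was not tested. Of 14 tested genes of resistin-like proteins, lysozymes and alternative activation, 5 were higher and 0 lower (35.7% and 0%; 5 and 2 after median centring).

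Chemokine genes rose in 8 and fell in 2 of 27 tested (29.6% and 7.41%; 7 and 3 after median centring). Cxcl14, a chemokine of epithelia, read 7.84, 8.01 and 8.83 in the knockout samples, against 5.06, 6.00 and 5.45 in the wild-type samples (2.72 ± 0.36, adjusted p = 8.38e-09). Cxcl10, which draws T cells, read 6.77, 6.15 and 6.79 in the knockout samples, against 4.59, 4.45 and 4.19 in the wild-type samples (2.16 ± 0.50, adjusted p = 0.00045). Ccl6 (2.16 ± 0.33, adjusted p = 2.71e-07), Ccl9 (1.96 ± 0.36, adjusted p = 1.61e-05) and Pf4 (2.29 ± 0.58, adjusted p = 0.00141) rose with knockout sample 1 the highest in each, and so did Ccl2, a monocyte chemokine (1.49 ± 0.46, adjusted p = 0.00981), not called without knockout replicate 1 (adjusted p = 0.145). Ccl7 was called (1.81 ± 0.66, adjusted p = 0.031), not called without knockout replicate 1 or wild-type replicate 1, 2 or 3 (adjusted p = 0.286 at most). Ccl3, a chemokine of activated phagocytes, fell beside Ccl22, at 5.94, 6.01 and 4.89 in the knockout samples, against 7.79, 8.13 and 7.69 in the wild-type samples (-2.25 ± 0.25, adjusted p = 8.69e-11).

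Other cells that a sort from skin could hold were read by their markers. Of 22 tested T and natural killer cell genes, 4 were higher and 0 lower (18.2% and 0%; 3 and 2 after median centring). Their summed linear signal was 642 to 704 in the knockout and 269 to 288 in the wild type. Thy1 (2.97 ± 0.42, adjusted p = 4.67e-08), Cd7 (2.84 ± 0.62, adjusted p = 0.000219) and Cd2 (1.91 ± 0.37, adjusted p = 3.53e-05) rose. Cd3e, which defines T cells, read 2.25, 2.24 and 2.70 in the knockout samples, against 2.25, 1.95 and 2.35 in the wild-type samples, below the median of the table in every sample. Fibroblast markers gave 3 higher and 0 lower of 15 (20% and 0%; 3 and 0 after median centring). Their summed signal was 2921 to 3636 in the knockout and 2730 to 3196 in the wild type. Postn, periostin, was the highest of them in change, at 8.08, 8.77 and 9.11 in the knockout samples, against 5.14, 6.10 and 4.48 in the wild-type samples (3.41 ± 0.41, adjusted p = 4.2e-10). Col1a1 was under the median of the table in all samples. Of 18 dermal dendritic cell markers, 3 were higher and 5 lower (16.7% and 27.8%; 3 and 7 after median centring), Ccr7 and Flt3 among the lower. Xcr1, which defines one lineage of them, was near or below the median of the table throughout. Neutrophil markers gave 2 higher and 0 lower of 22 (9.09% and 0%; 2 and 1 after median centring). Their summed signal was 2454 to 3129 in the knockout and 2454 to 2976 in the wild type, with Ly6g under the median of the table in all samples. Ighm, an immunoglobulin heavy chain gene, read 7.44, 7.47 and 6.36 in the knockout samples, against 5.17, 4.80 and 4.55 in the wild-type samples (2.25 ± 0.29, adjusted p = 5.15e-09), on 2 of its 7 probes. It belongs to a list of B cell genes with 2 higher and 0 lower of 12 (16.7% and 0%; 1 and 1 after median centring). Their summed signal was 182 to 289 in the knockout and 140 to 161 in the wild type. Ighm is itself counted in this sum, so the sum gives no reading of B cells apart from the rise of Ighm. Cd79a and Ms4a1, which define B cells, were not called. Melanocyte genes gave 0 higher and 2 lower of 7 (0% and 28.6%; 0 and 4 after median centring). Their summed signal was 90 to 113 in the knockout and 141 to 199 in the wild type. Those lower were Kit (-1.34 ± 0.31, adjusted p = 0.00051) and Mitf (-0.90 ± 0.26, adjusted p = 0.00541), the second not called without wild-type replicate 2 (adjusted p = 0.0512). Mast cell and basophil genes gave 0 higher and 1 lower of 11 (0% and 9.09%; 0 and 1 after median centring), Kit again, with 7 members below the median of the table on all arrays. Sebaceous and hair follicle genes gave 1 higher and 2 lower of 11 (9.09% and 18.2%; 0 and 2 after median centring). Dlx3, Krt79 and Elovl3, the called members, were each not called without knockout replicate 1 or 3. Of 18 endothelial and 4 erythroid genes 0 were called in limma, with 2 and 0 at an unadjusted p under 0.05, and 3 endothelial genes were lower after median centring.

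Among the largest falls were genes that belong to none of these groups. Crisp3, a cysteine-rich secretory protein, read 2.14, 2.74 and 1.37 in the knockout samples, against 6.52, 6.70 and 6.36 in the wild-type samples. Tm4sf19, a tetraspan membrane protein, read 2.28, 2.74 and 2.63 in the knockout samples, against 5.89, 6.89 and 6.57 in the wild-type samples. Stat4, the signal transducer of IL-12, read 1.78, 2.43 and 1.51 in the knockout samples, against 4.68, 4.67 and 5.50 in the wild-type samples. All knockout samples of each were under the median of the table and all wild-type samples above it (-4.45 ± 0.39, adjusted p = 1.93e-14, -3.90 ± 0.28, adjusted p = 1.27e-17 and -3.05 ± 0.45, adjusted p = 1.27e-07). Serpinb9, an inhibitor of granzyme B, read 6.21, 6.65 and 5.97 in the knockout samples, against 9.31, 9.34 and 9.47 in the wild-type samples. Serpinb6b, of the same family, read 5.02, 5.99 and 5.44 in the knockout samples, against 8.60, 8.90 and 8.65 in the wild-type samples. Both stayed above the median of the table in the knockout, at about 3 log2 units below the wild type (-3.09 ± 0.30, adjusted p = 5.37e-13 and -3.24 ± 0.31, adjusted p = 4.65e-13). Tnfsf18, the ligand of GITR (-3.59 ± 0.40, adjusted p = 6.68e-11), Avil, advillin, an actin-binding protein (-3.21 ± 0.26, adjusted p = 4.48e-16), and Hamp, the iron hormone hepcidin (-3.52 ± 0.89, adjusted p = 0.00146), fell by similar amounts. Tnfsf18 read 1.73, 1.49 and 2.18 in the knockout and 5.25, 5.41 and 5.51 in the wild type.

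The last question was where the effect of the knockout differed from that in other resident macrophages of adult mice of the same age. The knockout effect in Langerhans cells was set against the mean of the effects in microglia, Kupffer cells and kidney F4/80high macrophages, each with 3 knockout and 3 wild-type samples, 18 in all. The difference was called in 4447 of 17076 genes (26.0%), 2911 with the higher and 1536 with the lower effect in Langerhans cells, and it rests on the same 6 Langerhans samples as the results above. After median centring it was 1827 and 3726.

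Timd4 had a change of -5.08 in Langerhans cells, against -0.56 in microglia, -0.99 in Kupffer cells and -1.56 in kidney F4/80high macrophages, a difference of -4.04 ± 0.46, adjusted p = 1.67e-10. Ccr7 had -2.64, against -0.16 in microglia, 1.28 in Kupffer cells and -0.45 in kidney F4/80high macrophages (-2.87 ± 0.47, adjusted p = 1.92e-06). Cxcr4 had -1.92, against 2.62 in microglia, 1.19 in Kupffer cells and 0.53 in kidney F4/80high macrophages (-3.37 ± 0.38, adjusted p = 8.59e-11). In all these genes the effect in Langerhans cells lay below each of the others. Clec4d fell by 1.56 in Langerhans cells, against 4.76 in microglia, 0.27 in Kupffer cells and 1.98 in kidney F4/80high macrophages, so that the signs were opposite (-3.89 ± 0.41, adjusted p = 2.07e-11). H2-DMa rose by 1.10, against -3.10 in microglia, -1.35 in Kupffer cells and -0.90 in kidney F4/80high macrophages (2.89 ± 0.31, adjusted p = 2.97e-11). Irf8 itself had -1.09, against 0.47 in microglia, -0.63 in Kupffer cells and 0.16 in kidney F4/80high macrophages (-1.09 ± 0.29, adjusted p = 0.00245). Il10 had -2.55, against -0.21 in microglia, -0.52 in Kupffer cells and -1.83 in kidney F4/80high macrophages (-1.70 ± 0.61, adjusted p = 0.0305). For other genes the effects did not differ past the test: Csf2rb2 had -1.68, against -2.27 in microglia, -2.03 in Kupffer cells and -1.81 in kidney F4/80high macrophages (0.35 ± 0.35, adjusted p = 0.526), and Naip5 -1.32, against -1.50 in microglia, -1.61 in Kupffer cells and -0.90 in kidney F4/80high macrophages (0.02 ± 0.34, adjusted p = 0.981). Cxcl14 had 2.72, against 4.41 in microglia, 1.35 in Kupffer cells and 3.24 in kidney F4/80high macrophages (-0.28 ± 0.41, adjusted p = 0.692). Such a mean can join unlike effects: Oas2 had 1.48, against 4.76 in microglia, -0.45 in Kupffer cells and -0.20 in kidney F4/80high macrophages (0.11 ± 0.34, adjusted p = 0.861), and Mrc1 2.10, against 5.49 in microglia, -0.05 in Kupffer cells and 0.32 in kidney F4/80high macrophages (0.18 ± 0.44, adjusted p = 0.822). In both genes the rise was larger in microglia than in Langerhans cells, and the other populations lay between -0.45 and 0.32.

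**Figure D5:**
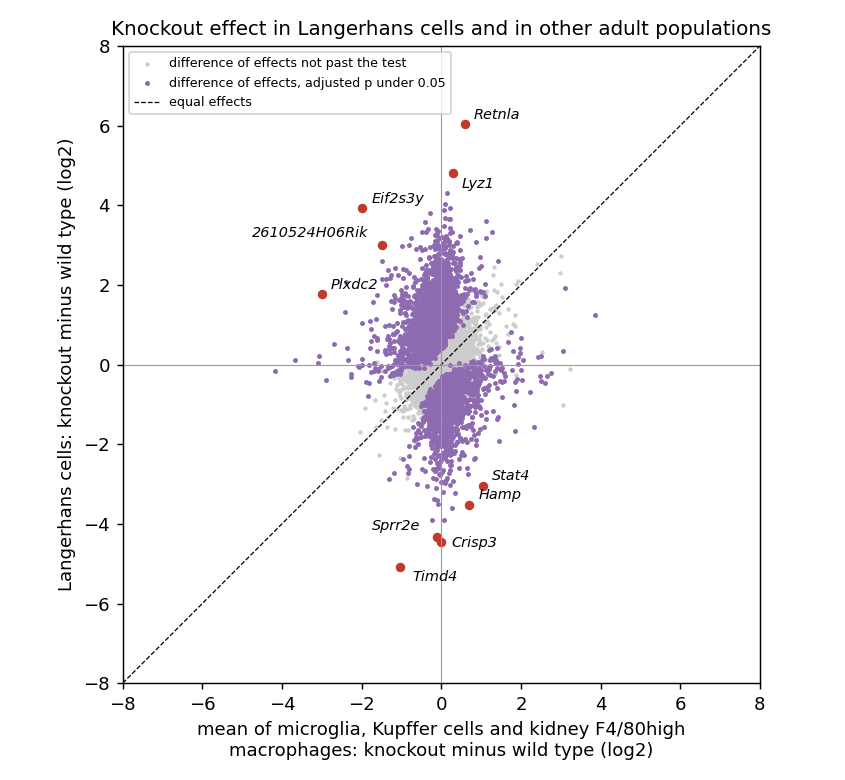
Knockout effect of each tested gene in Langerhans cells (vertical axis) against the mean effect in microglia, Kupffer cells and kidney F4/80high macrophages (horizontal axis), both in log2 units, with genes called in the difference in purple. The 10 genes with the largest differences are named in red, from Retnla at the top to Timd4 at the bottom.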

How the data were processed

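RNA of FACS-sorted cells was isolated with PicoPure columns and amplified with the Ovation PicoSL WTA System V2 and the Encore Biotin Module, per the labels' protocols. The deposited values are log2 signals, for which the submitters' processing notes name RMA and Affymetrix Expression Console, with no version or genome build in the sources used here. The table held 41345 probes on 81 arrays, and a repeat array of 1 sample was averaged with its first, leaving 80 samples in 27 groups. Of 25335 probes with a gene in the platform annotation, 23521 had 1 symbol, 1814 had several and were left out, and 16010 were not listed. The brightest probe stood for each of 22180 genes, 1082 of which have several. A gene was tested where it exceeded the median of the table (3.041) in at least 2 arrays, which left 17076.

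Groups came from the sample descriptions. limma 3.58.1 in R 4.3.3 fitted 1 mean per group to all 80 samples (53 residual degrees of freedom, eBayes with a variance trend, two-sided, Benjamini-Hochberg over all tested genes, threshold 0.05). Lists were described by counts and medians with no set test. On simulated data with the same 17076 genes, 53 of 100 genes changed by 1 log2 unit and 98 of 100 changed by 2 were recovered, and 6 of 16876 unchanged genes were called. The alternatives were other scalings, floors, probes, weights and arrays, a replicate block and leaving out each sample.

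The members, and the 37 lists with 717 tested of 804 entries, were chosen with earlier results of these data known. Named genes were Irf8, sex genes, the 15 largest rises and falls without overlap, up to 5 members of each list with the smallest adjusted p, markers said to define a cell type and the 5 largest differences per direction. Other genes, further list members among them, were named after their values were seen. Of 2 motifs searched, GGAANNGAA and GAAANNGAA can overlap.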

Additional observations from a re-analysis of the deposited data

Results flagged for a closer look

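The genes below had the 5 largest differences in each direction between the knockout effect in Langerhans cells and the mean effect in adult microglia, Kupffer cells and kidney F4/80high macrophages, each past an adjusted p of 0.05 in the limma fit. Eif2s3y, a Y-linked translation factor, came first at 5.90 ± 1.46, adjusted p = 0.00124, with effects of 3.92 in Langerhans cells, against -2.17 in microglia, -4.17 in Kupffer cells and 0.39 in kidney F4/80high macrophages. Retnla differed by 5.43 ± 0.91, adjusted p = 2.63e-06 and Lyz1 by 4.51 ± 0.60, adjusted p = 1.31e-08, with knockout sample 1 the highest in both. Retnla had 6.03 in Langerhans cells, against -0.08 in microglia, 0.66 in Kupffer cells and 1.21 in kidney F4/80high macrophages. Plxdc2, a membrane protein, differed by 4.76 ± 0.46, adjusted p = 1.15e-12, and its signs were opposite, with 1.77 in Langerhans cells, against -4.62 in microglia, -1.21 in Kupffer cells and -3.17 in kidney F4/80high macrophages. The gene 2610524H06Rik differed by 4.51 ± 0.56, adjusted p = 2.07e-09, at 5.91, 5.86 and 5.07 in the knockout samples, against 2.36, 3.04 and 2.42 in the wild-type samples.

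In the other direction, Crisp3 differed by -4.44 ± 0.45, adjusted p = 4.5e-12 and Stat4 by -4.09 ± 0.52, adjusted p = 3.1e-09. Stat4 had -3.05 in Langerhans cells, against 1.39 in microglia, 0.20 in Kupffer cells and 1.54 in kidney F4/80high macrophages. The cornified envelope gene Sprr2e differed by -4.23 ± 0.42, adjusted p = 1.57e-12 and Timd4 by -4.04 ± 0.46, adjusted p = 1.67e-10. The highest means of Crisp3 and Sprr2e in the other 25 groups were 2.33 and 2.50, under the median of the table (3.041). A fall of these 2 genes in the other populations could thus not be read, and their differences mostly repeat the change in Langerhans cells. Hamp, which encodes hepcidin, differed by -4.23 ± 1.03, adjusted p = 0.00103, at 5.12, 3.98 and 4.0 in the knockout samples, against 7.88, 7.81 and 7.97 in the wild-type samples, with -3.52 in Langerhans cells, against 0.96 in microglia, 1.33 in Kupffer cells and -0.18 in kidney F4/80high macrophages. What sets these differences apart was not tested.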

How the results depend on the processing

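The choice of scale moved the counts most. With each array centred on the median of the tested genes, 1869 genes were called higher and 4123 lower, against 2839 and 1780 on the deposited scale, and the difference from the other 3 populations was called with the higher effect in 1827 genes and the lower in 3726, against 2911 and 1536. Over the tested genes the knockout arrays have the higher medians (4.40 to 4.43, against 4.13 to 4.14), so centring lowers each change. Every other setting kept these counts within 1.5 times their value: quantile normalization (2423 and 2287), array weights (3071 and 1992), no floor (2748 and 1755), a floor at the 75th percentile of the table (2527 and 1546), a floor within the Langerhans arrays (2947 and 1857), no variance trend (2817 and 1767), every probe on its own (2959 and 1883), the 6 Langerhans arrays alone (2712 and 1813), and, chosen after seeing the data, no genes of chromosomes X and Y (2766 and 1730). Leaving out each sample in turn gave 3892 to 4163 called genes, 2477 to 2563 higher and 1415 to 1600 lower, and 3786 to 4058 for the difference. With the replicate number as a block 2684 were higher and 1756 lower, and Kdm5d (adjusted p = 0.0065), Uty (0.027) and Xist (0.0273) passed. Same-numbered samples had correlations of -0.027 to 0.001 between their deviations from the group means, so no large deviation was shared by number. Whether the numbers pair the samples is not given in the labels, and such correlations cannot exclude it. Against microglia alone the difference was called higher in 2691 and lower in 1494 genes, against Kupffer cells alone in 2626 and 1306, and against kidney F4/80high macrophages alone in 2104 and 1100. Of 276 called genes among 664 looked at singly, 210 kept their call whichever sample was left out, and 66 lost it at least once. Signs were followed over the settings, except every probe on its own, only for Irf8, sex genes, the largest changes and differences and the top list members. Among these, no called value turned its sign. The number of arrays limits precision, and at signals under the median of the table, where the knockout levels of Sprr2e, Stat4 and Crisp3 lie, levels cannot be ranked.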

Other observations

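The array also reads the transcripts of miRNA genes, whose precursors and host transcripts it measures rather than the mature miRNA. Of 279 tested genes named as miRNAs, 3 were higher (1.08%) and 26 lower (9.32%), where 16.6% of all genes were higher and 10.4% lower. The genes Mir146 and Mir142 are shown, chosen after their values were seen, because their miRNAs are known from myeloid cells, miR-146a as a brake on Toll-like receptor signalling and miR-142 as a miRNA of blood cells. Mir146 read 1.68, 3.22 and 2.89 in the knockout samples, against 5.19, 5.44 and 4.96 in the wild-type samples. Mir142 read 6.74, 7.18 and 6.32 in the knockout samples, against 8.14, 8.21 and 8.31 in the wild-type samples. Neither pair of groups overlapped, and the limma fit gave -2.60 ± 0.51 (adjusted p = 4.27e-05) for Mir146 and -1.47 ± 0.50 (adjusted p = 0.0204) for Mir142. The mature sequences from RefSeq (GRCm38.p6) follow, 5′ to 3′, with the seed, bases 2 to 8, in capitals, and no seed is shared among them.
mmu-miR-146a-5p: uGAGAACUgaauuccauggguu
mmu-miR-142a-5p: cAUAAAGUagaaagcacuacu
mmu-miR-142a-3p: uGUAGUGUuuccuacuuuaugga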
